A study of Mus musculus with 7 samples.

Results

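The 51 genes described here encode the machinery that copies DNA and the enzymes that supply its nucleotides. They were taken as a named list, and every probe annotated with a current or older symbol of a listed gene alone was used. On the array, 46 of them had at least 1 probe, 67 probes in all, and 39 lay above background and could be compared between the groups, among 7191 named genes that could. No probe was annotated to Gins1, Gins2, Rfc2, Rfc3 or Rfc5 alone. Those of Orc1, Orc2, Orc3, Dtl, Pola1, Pole2 and Slbp stayed near background, with signals of -25.4 to 24.1, and were not tested.

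The samples were tumours of male BALB/c mice, 10 weeks old by the labels, that had been inoculated under the skin of the neck with J558 cells, a line of mouse myeloma (plasma cell tumour), and fed standard chow. For 4 weeks the control mice drank distilled water and the treated mice drank oil palm phenolics (OPP), the water-soluble phenolic extract of palm oil milling, at 1500 ppm gallic acid equivalents (GAE). Tumour RNA of 4 control and 3 OPP samples was hybridised to 7 single-colour Illumina bead arrays, 1 per sample, and the question was which genes differed in expression between tumours of treated and untreated mice. The RNA came from whole tumours, which hold host cells besides the J558 line, and it was chosen by the study for high RNA integrity within each condition, with outlier samples taken out before deposit. Nothing in the labels says which mouse each sample came from, so p-values measure only the spread between these samples.

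Replication is prepared in G1 phase, when the origin recognition complex, Cdc6 and Cdt1 load the ring-shaped Mcm2 to Mcm7 helicase on DNA, a step known as licensing that geminin (Gmnn) holds back once S phase has begun. Cdc45 and the GINS complex then turn the ring into a working helicase, primase and the DNA polymerases follow, and ribonucleotide reductase (Rrm1 and Rrm2) and thymidylate synthase (Tyms) supply the building blocks. Transcription of many of these genes is known to be driven by the E2F factors as cells leave G1, so the module is widely read as a sign of cells in or near S phase.

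Sites for these factors were looked for in the promoters of the genes. The genes were not chosen by promoter sequence, but many were already known as driven by E2F, so the shares below are a description. In the RefSeq promoter windows of GRCm38.p6, which run from 250 bases before to 50 bases after a transcription start, 43 of the 51 genes had an entry, and 16 of these (37.2%) held an E2F-type site, here taken as any of the letters TTTCCCGC, TTTCGCGC, TTTGCCGC or TTTGGCGC on either strand. The share was 2.60% over all 27025 genes with a window and 4.75% over the 5912 tested genes with one. The 16 were Orc1, Orc3, Cdc6, Cdt1, Dtl, Mcm3, Mcm5, Mcm6, Mcm7, Gins3, Pola1, Pold1, Pole2, Rfc3, Lig1 and Uhrf1. The 8 genes with no entry were Gmnn, Mcm4, Gins1, Gins2, Gins4, Pole, Prim2 and Rfc2. A CCAAT box (CCAAT, either strand), a common element of such promoters, was present in 27 of the 43 genes (62.8%) and in 41.1% of all genes and 44.3% of the tested ones, and the letters TTTGAA, the core of the CHR element of genes of later cell-cycle phases, in 5 of 43 (11.6%), beside 20.2% of all genes and 14.2% of the tested ones. A match of letters is a description and not a bound site.

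Stretches before the start of 6 of these genes, each known for its part in licensing or in the helicase, show the sites, which are in capitals with 20 bases on either side where these lay before the start. They lie at chr1:128359725-128359835 (minus strand) for Mcm6, chr8:75109336-75109387 (plus strand) for Mcm5, chr5:138172021-138172068 (minus strand) for Mcm7, chr8:95633498-95633545 (plus strand) for Gins3, chr11:98907993-98908040 (plus strand) for Cdc6 and chr4:108579407-108579453 (plus strand) for Orc1, and are written 5′ to 3′ on the strand of the gene. In the Mcm5 and Mcm6 stretches a site on one strand overlaps a site on the other, and Mcm6 holds a further site downstream.
Mcm6: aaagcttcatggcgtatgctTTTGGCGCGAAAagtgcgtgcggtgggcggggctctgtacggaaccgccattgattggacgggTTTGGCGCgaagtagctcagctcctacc
Mcm5: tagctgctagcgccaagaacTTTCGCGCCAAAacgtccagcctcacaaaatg
Mcm7: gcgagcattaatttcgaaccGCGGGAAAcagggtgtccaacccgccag
Gins3: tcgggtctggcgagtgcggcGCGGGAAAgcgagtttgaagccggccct
Cdc6: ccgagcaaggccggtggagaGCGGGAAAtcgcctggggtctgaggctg
Orc1: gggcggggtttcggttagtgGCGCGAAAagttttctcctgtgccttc

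**Figure D1:**
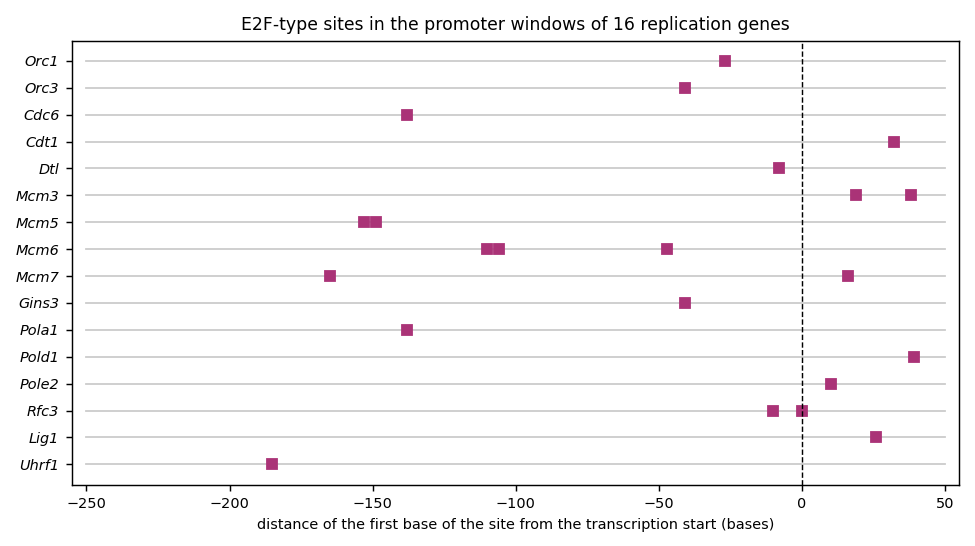
Distance in bases of the first base of each E2F-type site (squares) from the transcription start (dashed line) in the promoter windows (grey lines, 250 bases before to 50 after) of the 16 genes that held one; where a gene has several starts, each site is placed from its own start. Sites lay on both sides of the start, and Mcm6 held the most, 3.

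The values are intensities in which the background had been subtracted and the arrays normalised by the study. Values under 10 were set to 10 before log2 was taken, every log2 change is OPP minus control, and where several probes measured a gene the brightest stands for it. A probe was tested if it exceeded a background limit, 20.6 to 26.7 depending on the array, on all arrays of at least 1 group. All 39 tested genes of the module were above the limit on all 7 arrays, so none was kept through 1 group alone. The arrays correlated at r = 0.970 to 0.987 within groups and 0.954 to 0.983 between groups, over the log2 signals of 10371 tested probes. By limma 0 of these probes had an adjusted p under 0.05 and 971 an unadjusted p under 0.05. In the summed signals of tested marker genes, 8 plasma cell markers gave 42911 to 49346.5 on control and 44873 to 48888 on OPP arrays, 8 skeletal muscle markers 6659 to 28828 and 87.2 to 4908, and 6 T and NK cell markers 215 to 2982 and 47.7 to 1394, lowest in each group on control replicate 1 and OPP replicate 3. All 8 muscle markers and 2 of 3 adipocyte markers were lower at an unadjusted p under 0.05, while none of the plasma cell, T and NK cell, macrophage (5 tested), fibroblast (6 tested) or endothelial (3 tested) markers reached it. Their part in the results below was not tested. In such bulk samples fewer cells of a type and less RNA per cell cannot be told apart.

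Signals of the replication module were close in control and OPP tumours. Of the 39 tested genes, 2 were lower at an unadjusted p under 0.05, the licensing inhibitor Gmnn and the clamp loader subunit Rfc1, and 0 were higher, beside 3.77% lower and 4.70% higher over all 7191 named genes. None passed an adjusted p under 0.05 (0% of the named genes did, in limma), and adjusted p ran from 0.377 to 0.994. The log2 changes lay between -0.38 (Pole) and 0.45 (Dut), and 29 of the 39 were below 0, where 51.1% of all tested named genes were. The median log2 change was -0.05 for the module and -0.00409 for all named genes, and the median size of a change, whatever its sign, was 0.07 and 0.12. The groups did not overlap for 1 gene that was higher, Orc6, and for 3 that were lower, Gmnn, Prim2 and Rfc1, beside 5.02% and 4.06% of all named genes.
Bounds on these changes were taken from the brightest probe, gene by gene and not adjusted for the number of genes. For all 39 genes the 95% interval of that probe's change from limma lay inside 2-fold in either direction, and for 32 inside 1.5-fold. The lowest bound was -0.81 (Prim2) and the highest 0.94 (Dut), as log2 changes. The median standard error of these probes was 0.12 on the log2 scale. The interval of the dimmer Mcm4 probe, -0.10 to 1.08, passed 2-fold. The median SD over the 7 arrays was 0.16 for the module and 0.19 for all named genes.

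**Figure D2:**
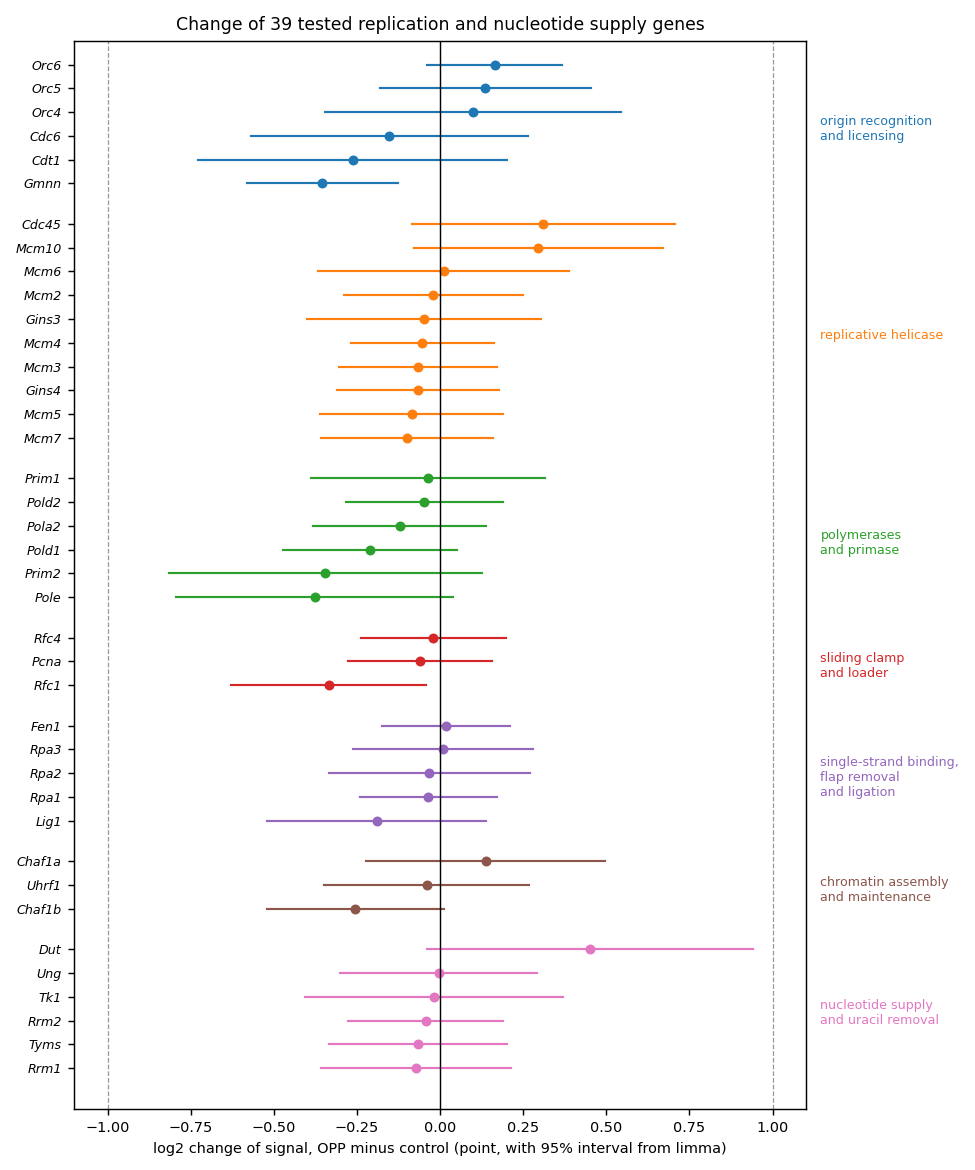
Log2 change of signal (x axis, OPP minus control) of the 39 tested genes, coloured by role, as points with 95% intervals from limma; dashed lines mark 2-fold. The intervals of Gmnn and Rfc1 alone lie wholly on one side of 0, and every interval lies between the dashed lines.

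Among the 10 genes of origin recognition and licensing, 6 were tested, 3 above 0 and 3 below. Gmnn encodes geminin, which binds Cdt1 and so prevents a second round of licensing. Its signal was 1486, 1649, 1588 and 1688 on the control arrays, replicates 1 to 4 in order here and below, and 1371, 1178 and 1216 on the 3 OPP arrays. All OPP arrays lay below all control arrays, with means of 1603 ± 88.1 (SD, n = 4) and 1255 ± 102 (SD, n = 3). The log2 change was -0.35 (SE 0.10, 95% interval -0.58 to -0.13, limma adjusted p = 0.377), the smallest adjusted p of the module. Cdt1, the loading factor that geminin binds, had 2339 ± 557 and 1922 ± 268 (log2 change -0.26, limma adjusted p = 0.700), and its groups overlapped. The other loading factor, Cdc6, had 1607 ± 315 and 1429.7 ± 178 by its brightest probe (limma adjusted p = 0.801), and its dimmer probe lay on the other side of 0 (log2 change 0.22).
Orc6, the smallest subunit of the origin recognition complex, went the other way from Gmnn. Its signal was 823, 813.5, 774 and 890.2 on the control arrays and 907, 929.6 and 934 on the OPP arrays. The highest control array, replicate 4, came close to the lowest OPP array without reaching it. Its log2 change was 0.16 (SE 0.09, 95% interval -0.04 to 0.37, limma adjusted p = 0.593). The subunits Orc4 and Orc5 had log2 changes of 0.10 and 0.14 by their brightest probe, with adjusted p of 0.879 and 0.776 from limma, and -0.10 and -0.01 by the other.

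All 10 tested genes of the replicative helicase overlapped between the groups, where 9.08% of all tested named genes did not. Mcm2, Mcm3, Mcm4, Mcm5 and Mcm7, subunits of the ring, had log2 changes of -0.02, -0.07, -0.05, -0.09 and -0.10, with adjusted p of 0.790 to 0.964 from limma, and the GINS subunits Gins3 and Gins4 had -0.05 and -0.07. The study reported Mcm6, a ring subunit, as down-regulated by OPP on these same samples, using the Illumina custom error model. That model was not run here. Mcm6 has 3 probes. The brightest read 1072, 1444, 1674 and 1509 on the control arrays and 1566, 1322 and 1372 on the OPP arrays. Control replicate 1 was the lowest of all 7 arrays and control replicate 3 the highest, and the log2 change was 0.01 (SE 0.16, 95% interval -0.37 to 0.39, limma adjusted p = 0.989).
The middle Mcm6 probe read 449, 589, 643 and 592 on the control arrays and 512, 406 and 477 on the OPP arrays. Here too control replicate 1 was lowest among the controls, and it lay within the OPP range. That probe had a log2 change of -0.28 (SE 0.15, limma adjusted p = 0.589), and the dimmest had 0.01 (SE 0.17, limma adjusted p = 0.993). On the brightest probe the sign turned to -0.12 without control replicate 1 and to -0.06 without OPP replicate 1, so the direction of Mcm6 was not settled by these arrays.
Cdc45 and Mcm10 lay above 0. Cdc45, a part of the moving helicase, had signals of 317, 262.5, 359 and 398 on the control arrays and 488, 369 and 381 on the OPP arrays, a log2 change of 0.31 (SE 0.17, 95% interval -0.09 to 0.71, limma adjusted p = 0.605). Its change came to 0.18 without OPP replicate 1 and to 0.20 without control replicate 2. Mcm10, which helps to start the fork, had 123, 124, 104 and 160.2 and then 153, 138.5 and 176, a log2 change of 0.29 (SE 0.16, 95% interval -0.08 to 0.67, limma adjusted p = 0.604). In both genes control replicate 4 lay above the lowest OPP array.

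Of the 8 polymerase and primase genes, 6 were tested and all 6 were below 0, with a median log2 change of -0.17 and adjusted p of 0.553 to 0.947 from limma. Pole, the catalytic subunit of the leading-strand polymerase, had signals of 239, 279, 216 and 286 on the control arrays and 150.4, 210.0 and 235 on the OPP arrays. OPP replicate 1 was the lowest, while OPP replicate 3 lay inside the control range. The log2 change was -0.38 (SE 0.18, 95% interval -0.79 to 0.04, limma adjusted p = 0.553), and it came to -0.19 without OPP replicate 1. Pold1, the catalytic subunit of the lagging-strand polymerase, had 764.5, 864, 800.5 and 947 on control arrays and 804, 696 and 687.5 on OPP arrays, a log2 change of -0.21 (SE 0.11, limma adjusted p = 0.594). Its OPP replicate 1 exceeded the lower pair of control arrays.
Prim2, the large subunit of primase, read 312, 336, 536 and 317 on the control arrays and 305, 258 and 303 on the OPP arrays. The groups did not overlap, but the gap between control replicate 1 and OPP replicate 1 was small and control replicate 3 stood far above the rest. Its log2 change of -0.34 (SE 0.20, limma adjusted p = 0.626) came to -0.16 without control replicate 3. The small primase subunit Prim1 had 1319 ± 158 and 1293 ± 236, a log2 change of -0.04. Pola2 and Pold2, accessory subunits of the priming and lagging-strand polymerases, had -0.12 and -0.05.

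Of the sliding clamp and its loader, 3 of 6 genes were tested and all 3 were below 0. Rfc1, the large subunit of the loader that opens the clamp, had signals of 608, 577, 628 and 619 on the control arrays and 396, 534 and 528.5 on the OPP arrays. Every OPP array was below every control array, with replicate 1 the farthest. The log2 change was -0.33 (SE 0.13, 95% interval -0.63 to -0.04, limma adjusted p = 0.490), and it came to -0.19 (limma unadjusted p = 0.0873) without OPP replicate 1. Pcna, the clamp itself and a common marker of proliferating cells, read 3389.6, 3534.5, 3436 and 3651 on the control arrays and 3665, 3338 and 3094 on the OPP arrays. The highest and the lowest of these 7 values both came from OPP tumours. Its log2 change was -0.06 (SE 0.09, 95% interval -0.28 to 0.16, limma adjusted p = 0.852). Both probes of Rfc4, a small loader subunit, lay near 0, with log2 changes of -0.02 and -0.03 (limma adjusted p of 0.954 and 0.960).

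All 5 genes of single-strand binding, flap removal and ligation were tested. Their groups overlapped, where those of 9.08% of all tested named genes did not. Lig1, the ligase that seals lagging-strand fragments, read 618, 649.6, 681 and 701 on the control arrays and 727, 532 and 504 on the OPP arrays. OPP replicate 1 was the highest of the 7 and the other OPP arrays were the lowest. Its log2 change was -0.19 (SE 0.14, limma adjusted p = 0.697). That value came to -0.35 (limma unadjusted p = 0.0129) without OPP replicate 1, to -0.09 without OPP replicate 3 and to -0.05 as the mean of its probes. Rpa1, the large subunit of the single-strand binding protein, read 4716, 4837, 5199 and 5112 and then 5134, 4626 and 4779, a log2 change of -0.04 (SE 0.09, limma adjusted p = 0.910). Its partners Rpa2 and Rpa3 had -0.03 and 0.01. Fen1, the nuclease that trims flaps, had 1796 ± 22.2 and 1819.5 ± 95.8, a log2 change of 0.02 (SE 0.08, 95% interval -0.18 to 0.21), the smallest standard error of the module.
Chaf1b and Chaf1a, subunits of the factor that places histones on new DNA, lay on either side of 0. Chaf1b read 567, 554, 539.9 and 497 on the control arrays and 525, 416 and 421 on the OPP arrays, a log2 change of -0.25 (SE 0.11, 95% interval -0.52 to 0.01, limma adjusted p = 0.536). Chaf1a read 205, 217, 143 and 202 and then 216, 200.1 and 207.5, a log2 change of 0.14 (SE 0.15, limma adjusted p = 0.794), and without control replicate 3, the array that departed from the others, the change was 0.0016. Uhrf1, which helps to maintain DNA methylation at the fork, had 2515 ± 153 and 2466 ± 427, a log2 change of -0.04.

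**Figure D3:**
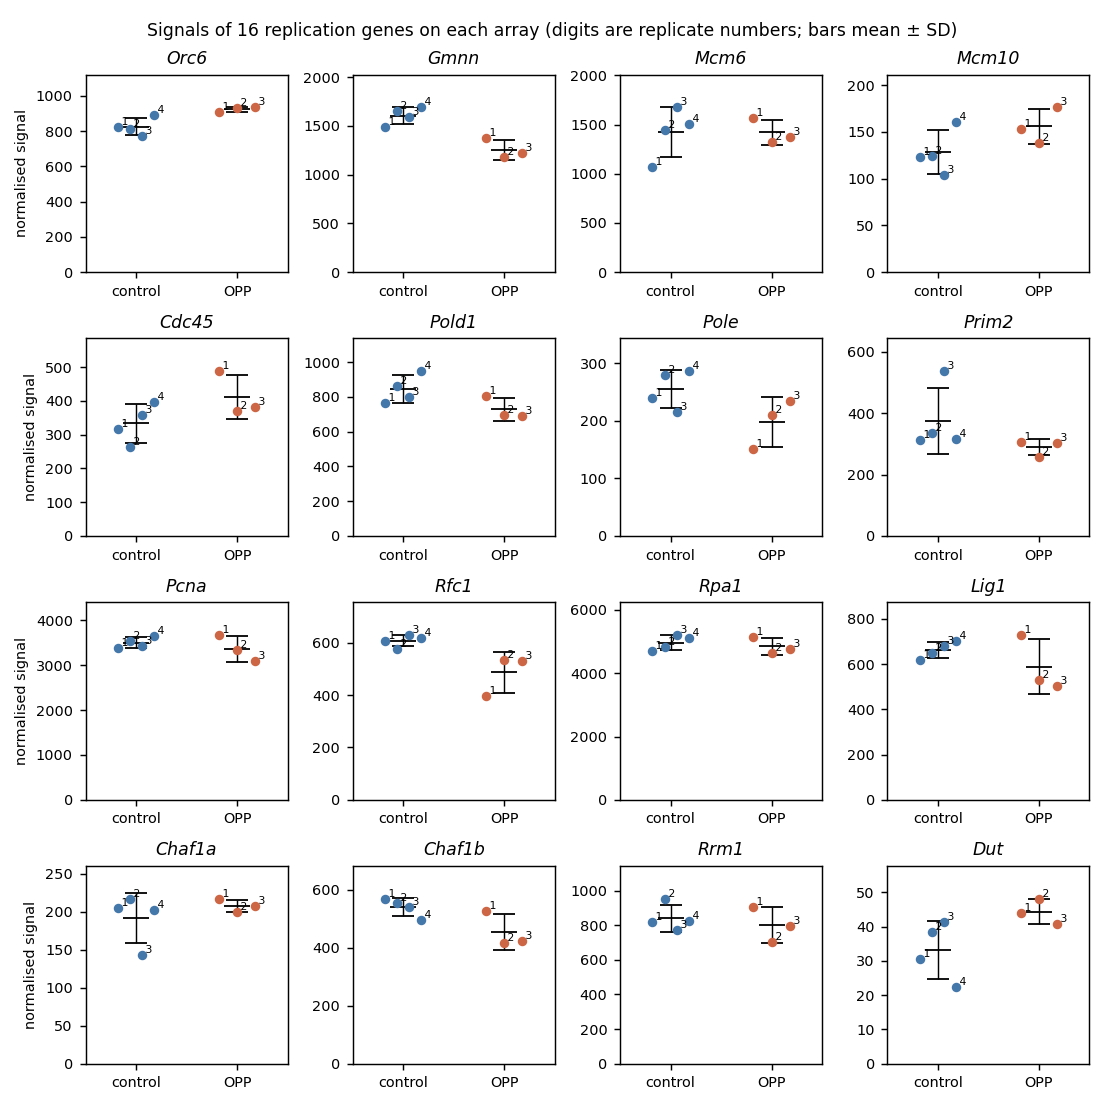
Normalised signal (y axis, linear, from 0) of 16 genes of the module on each of 4 control and 3 OPP arrays, with mean and SD as bars and the replicate number beside each point. The groups are apart for Orc6, Gmnn, Prim2 and Rfc1 and overlap for the other genes, with control replicate 3 far above the rest for Prim2.

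All 6 genes of nucleotide supply and uracil removal were tested, 5 of them below 0. The reductase subunits Rrm1 and Rrm2, which make deoxyribonucleotides, had log2 changes of -0.07 and -0.04, Tyms -0.07 and the thymidine kinase Tk1 -0.02 by the brightest probe, with adjusted p of 0.861 to 0.977 from limma. Rrm1 read 817, 950.2, 770.4 and 822 on the control arrays and 905, 701 and 795 on the OPP arrays, so the OPP arrays spanned most of the control range and ran below it. Dut, the enzyme that keeps dUTP out of DNA, lay above 0. It read 30.6, 38.5, 41.3 and 22.5 on the control arrays and 44.1, 48.0 and 40.8 on the OPP arrays, all close to the background limit. Its log2 change was 0.45 (SE 0.21, 95% interval -0.04 to 0.94, limma adjusted p = 0.543), and it came to 0.28 without control replicate 4, the lowest array.
Ung, the glycosylase that removes uracil from DNA, depended on the probe. Its brighter probe had 159.9 ± 21.2 and 158.6 ± 11.8, a log2 change below 0.01 in size (limma adjusted p = 0.994). The dimmer one read 105.5, 106.0, 158 and 107 on the control arrays and 137, 166 and 201 on the OPP arrays, with control replicate 3 inside the OPP range. It had a log2 change of 0.50 (SE 0.19, limma adjusted p = 0.495) and was the 1 higher probe among the 3 of 54 tested probes of the module with an unadjusted p under 0.05. Over the whole array, 971 of 10371 tested probes reached that p in either direction.
Of the 13 genes with several tested probes, 9 had probes on both sides of 0, among them Cdc6, Mcm4, Mcm6, Rrm2 and Ung. The dimmer probe of Mcm4 read only 33.7 to 78.7 and had a log2 change of 0.49 (SE 0.25, limma adjusted p = 0.580), beside -0.05 (SE 0.09) for the bright one. Over all 54 tested probes of the module, 37 were below 0 and 17 above.

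**Figure D4:**
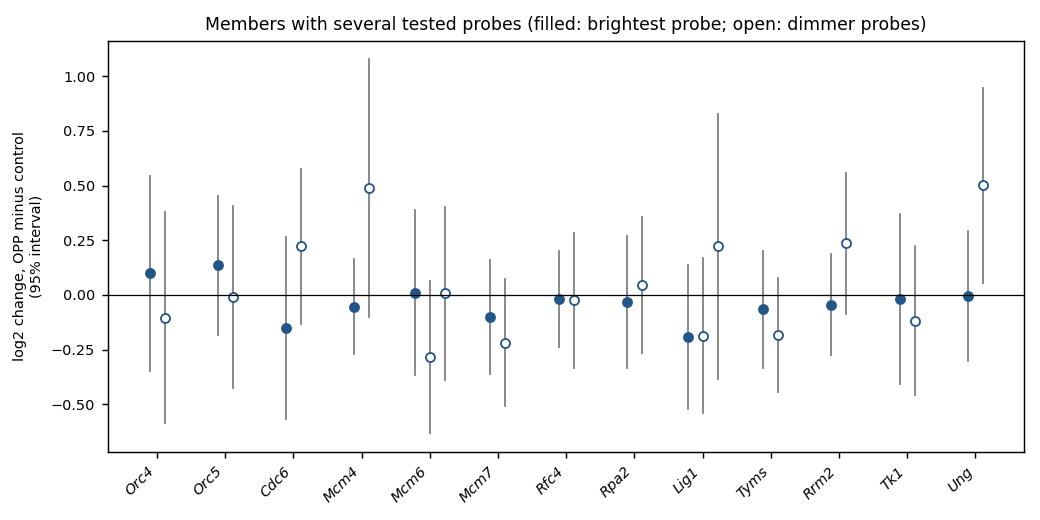
Log2 change (y axis, OPP minus control) with its 95% interval from limma for each tested probe of the 13 genes with several, the brightest filled and the dimmer ones open. The intervals of the brightest probes all include 0, and only the dimmer Ung probe, at 0.50, has an interval clear of 0.

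The arrays of the OPP group did not move as 1. OPP replicate 1 gave the highest value of the 3 OPP arrays for 26 of the 39 genes, replicate 3 for 8 and replicate 2 for 5. This count was not made over all named genes. Measured as the median deviation from the control mean over the 39 genes, OPP replicates 1, 2 and 3 lay at 0.07, -0.10 and -0.11 on the log2 scale, and control replicates 1 to 4 at -0.05, 0.02, -0.01 and 0.08. OPP replicate 1 thus sat within the control range and OPP replicates 2 and 3 below it. Over all named genes the same medians stayed within -0.03 to 0.04. Beside this, the summed T and NK cell marker signal was 1394, 807 and 47.7 on OPP replicates 1 to 3 and the muscle marker signal 87.2, 4908 and 738, and the part of either was not tested. With control replicate 1 and OPP replicate 3 left out, a choice made after seeing the data, 26 of 39 genes were below 0, where 53.1% of all named genes were, and 3, Gmnn, Rfc1 and Pole, were lower at an unadjusted p under 0.05, a threshold that 9.94% of all named genes then met in either direction.
The tested genes with an E2F-type site in their promoter window, 10 in number, had a median log2 change of -0.09, with 9 below 0. The 24 tested genes whose window held none had -0.02, with 15 below 0. The 5 tested genes with no entry, Gmnn, Mcm4, Gins4, Pole and Prim2, had the lowest median of the 3 sets, -0.34, with all 5 below 0. The differences between these sets were not tested.

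In 3 lists of other genes, of the replication fork, of nucleotide synthesis and of mitosis, no gene had a limma adjusted p under 0.05. At an unadjusted p under 0.05 they held 8.0%, 10.3% and 15.4% of their tested genes, beside 8.47% of all named genes. Of 25 other genes of the fork and of origin firing, 9 were above 0 and 16 below (median log2 change -0.05), and 2 had an unadjusted p under 0.05, both higher, beside 4.70% higher over all named genes. Donson, a protein needed for stable forks, had 320.0 ± 26.5 and 403 ± 23.3, a log2 change of 0.33 (SE 0.10, limma adjusted p = 0.418), and the histone chaperone Asf1a had 0.51 (SE 0.21, limma adjusted p = 0.516). Asf1a read 36.7, 33.2, 24.7 and 38 on the control arrays and 35, 51.6 and 56.1 on the OPP arrays. Like Dut it lay close to the background limit, and its groups overlapped.
Of 29 genes of nucleotide synthesis and salvage, 17 were above 0 and 12 below (median 0.04), and at an unadjusted p under 0.05 there were 2 higher and 1 lower, beside 4.70% and 3.77% over all named genes. Shmt2, the mitochondrial serine hydroxymethyltransferase that feeds one-carbon units to nucleotide synthesis, read 1014, 781, 1101 and 882 on the control arrays and 1395, 1356 and 1582 on the OPP arrays. All OPP arrays were above all control arrays, a log2 change of 0.62 (SE 0.14, limma adjusted p = 0.335). Umps, of pyrimidine synthesis, had 0.31 (SE 0.12, limma adjusted p = 0.502), and Ppat, the first enzyme of purine synthesis, -0.41 (SE 0.15, limma adjusted p = 0.485).
Of 26 mitotic genes, 22 (84.6%) were below 0, where 51.1% of all named genes were, with a median log2 change of -0.13, and 4 were lower at an unadjusted p under 0.05, namely Cenpa (-0.48), Plk1 (-0.22), Ccna2 (-0.30) and Mad2l1 (-0.28), with adjusted p of 0.347 to 0.518 from limma. Over all named genes 3.77% were lower at that p. Cenpa marks the centromere, Plk1 and Ccna2 drive entry into mitosis and Mad2l1 acts in the spindle checkpoint. The study reported Plk1, Ccna2 and Mad2l1 as down-regulated on these same samples, so this count is not independent evidence. For Ccna2 it also gave real-time quantitative RT-PCR, with a direction and fold change that it called comparable to the array. By array, the mitotic list lay at -0.03, -0.15 and -0.16 on OPP replicates 1 to 3 and at -0.07 to 0.06 on the control arrays, OPP replicate 1 again being the one inside the control range.

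**Figure D5:**
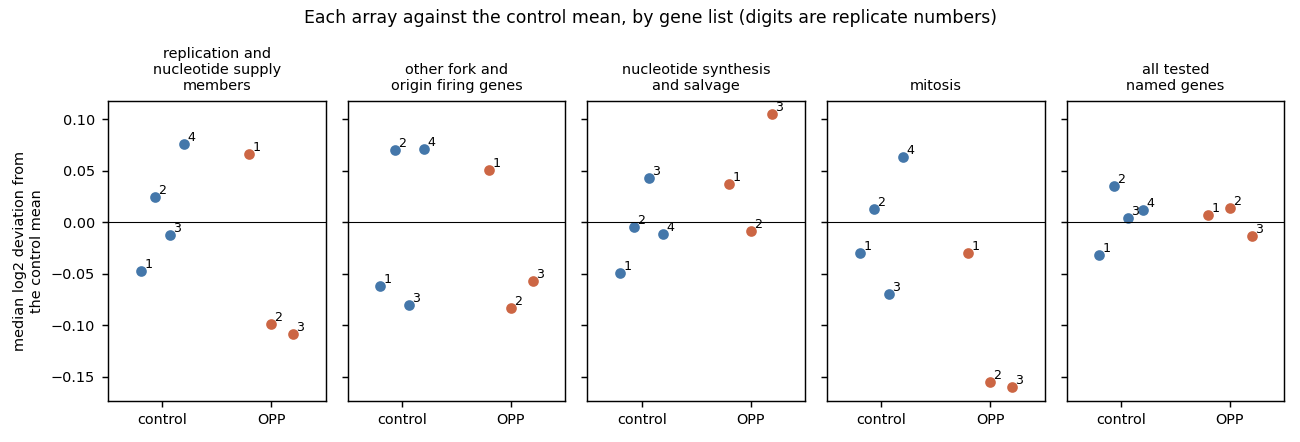
Median log2 deviation from the control mean (y axis) of each array over the 39 tested genes of the module, 3 lists of other genes and all 7191 tested named genes, control and OPP arrays side by side with their replicate numbers. For the module and for mitosis OPP replicates 2 and 3 lie below the control arrays and OPP replicate 1 among them, while over all named genes the arrays lie within -0.03 to 0.04.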

How the data were processed

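RNA of 4 control and 3 OPP-treated J558 tumours was measured on single-colour Illumina MouseRef-8 version 1 BeadChips. The authors extracted the deposited intensity values, which are linear, with BeadStudio 1.5.1.3, subtracted background, applied rank invariant normalisation and removed outlier samples. A table of signals before normalization was not used here, since its 14 columns match no sample by name. Precision is limited by the number of arrays.

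Of 24048 probes, 66 without a value and 4 bacterial controls were left out, and the ribosomal RNA probe was left unnamed. A platform annotation updated through RefSeq gave 19343 probes 1 symbol. The 4635 probes with no symbol or with several were left unnamed. The background limit was the 0.99 level (2.33 SD) of the noise, estimated per array from values below 0. Groups were compared over all 10371 probes above it with limma 3.58.1 (lmFit, eBayes) in R 4.3.3, two-sided, with Benjamini-Hochberg adjustment; the Illumina custom error model of the methods was not run. The script was tested on simulated data. Python 3.11.15, pandas 2.3.3 and matplotlib 3.10.9 handled tables and plots.

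The members and lists were chosen with earlier results of these data known. Genes given array by array are those with an unadjusted p under 0.05 or groups apart, Mcm6, and the 2 with the smallest p of each role; genes of other lists are named only at an unadjusted p under 0.05, at most 4 a list. The dimmer probes shown, and Mcm4 and Ung, were added after their values were seen. Alternatives were a floor of 50, quantile or median scaling, 2 other detection filters, array weights, a trended and robust prior, probe means per gene, a replicate block and each array left out in turn.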

Additional observations from a re-analysis of the deposited data

Results flagged for a closer look

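In 2 of the 39 tested genes of the module 1 control array stood far from the other 3 by Dixon's criterion, which chance alone meets in about 1 of 20 groups. For Prim2, control replicate 3 had a signal of 535.9, beside 312 to 336 on the other control arrays. For Chaf1a the same array had 142.7, beside 202 to 217.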

How the results depend on the processing

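Over 16 alternatives and 1 more chosen after seeing the data, limma gave 0 genes of the module an adjusted p under 0.05 (smallest 0.259), its median log2 change ran from -0.09 to -0.02, and 24 to 31 of 39 genes were below 0 wherever 39 were tested. Probes past the adjusted threshold over the whole array numbered 2 with quantile normalization, 2 with a floor of 50, 1 with a trended and robust prior, 2 without both control replicate 1 and OPP replicate 3, and 0 to 4 when single arrays were left out.
Module genes higher at an unadjusted p under 0.05 numbered 1 (Orc6) with a floor of 50 and with no detection filter, and 0 to 1 with single arrays left out (Dut without control replicate 3, Mcm10 without control replicate 4, Orc5 without OPP replicate 1). Those lower numbered 4 with a trended and robust prior, 1 to 3 with single arrays left out and 0 with a replicate block. Of all named genes, 8.91% reached that p in either direction with a floor of 50 and 5.27% with no detection filter. The share was 8.46% with a trended and robust prior, 6.35% to 11.6% with single arrays left out and 5.59% with a replicate block. Gmnn was lower at an unadjusted p under 0.05 under all alternatives but the block. Without control replicate 1, control replicate 3, control replicate 4 or OPP replicate 1, Rfc1 was not.
The labels do not say whether same-numbered samples were paired. Deviations of same-numbered samples from their group means correlated at -0.27, 0.08 and -0.17. The replicate block left 684 probes at an unadjusted limma p under 0.05, against 971 without it. That model has more terms to fit and leaves control replicate 4 without a partner. The lower count therefore cannot tell whether the numbers mark pairs.
Of the 16 genes given array by array, 14 kept their sign under every alternative that gave a value; Dut lay at the floor on every array with a floor of 50 and had none. The log2 change of Mcm6 turned to -0.036 with array weights, -0.089 with the mean of its probes and -0.097 without both control replicate 1 and OPP replicate 3, and ran from -0.12 to 0.094 with single arrays left out. That of Rrm1 ran from -0.17 to 0.019, above 0 without OPP replicate 2 alone. The causes were not tested.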
